A study of Drosophila melanogaster with 18 samples.

Results

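The comparison described here asks which genes changed differently in 2 inbred lines of Drosophila melanogaster when ovaries in diapause were set against ovaries of age controls. It is the line difference, (LP diapause minus LP age control) minus (HP diapause minus HP age control) on the log2 scale, and it uses 12 of the 18 libraries of the series, 3 in each of 4 groups. The LP ("Low Plasticity") and HP ("High Plasticity") lines are both labelled wild type, and each is a single inbred genotype. LP diapause and HP diapause ovaries came from flies held at 12 °C, and LP and HP age controls were ovaries of flies aged 28 days and held at 25 °C. The tissue was labelled as ovary stages 1 to 7, that is, the egg chambers that precede yolk uptake. The labels call the libraries of a group biological replicates, and the sources used here give neither the animals per library nor the age of the flies at 12 °C. Temperature and diapause differ together in this comparison and cannot be told apart.

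Reproductive diapause in this species is an arrest of egg production that cool, short days bring about: egg chambers stop before they fill with yolk, and reserves are kept in the body. Insulin-like peptides, juvenile hormone and ecdysteroids act together to let the ovary go on, and genotypes differ in how readily they arrest. A difference in response between genotypes, also called a genotype by environment interaction, can come from the arrested state, from the control state or from both, so levels in all 4 groups are given for the genes the results turn on.

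Values are CPM, read counts relative to library size with libraries scaled by the trimmed mean of M-values (TMM), with 3 libraries a group in the order of replicates 1, 2 and 3. Fold changes are on the log2 scale, and a positive line difference means that the change was higher in LP than in HP. The standard error (SE) is approximate. It was derived as the absolute log2 value over the square root of the F statistic of the test named next. A gene was called at an adjusted p under 0.05 in the quasi-likelihood test of edgeR, adjusted by Benjamini-Hochberg over all 9037 genes tested, and each adjusted p below is from that test. Coordinates are those of the count table.

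Total counts ran from 14352846 to 21343992 in the 12 libraries. The first principal component of these libraries held 55.4% of the variance and separated diapause from age control, and the second held 24.4% and separated the lines. Germline markers and somatic ovary markers (6 genes each) were above 0 in all 12 libraries. They took 0.240% ± 0.0126 and 0.0443% ± 0.0022 of counts in LP diapause ovaries, and 0.174% ± 0.0091 and 0.0229% ± 0.0034 in LP age controls. In HP they took 0.239% ± 0.0153 and 0.0458% ± 0.0022 in diapause ovaries, and 0.214% ± 0.0153 and 0.0308% ± 0.0011 in age controls (SD, n = 3 each). In such bulk tissue fewer cells of a type and less RNA per cell cannot be told apart. In LP diapause replicate 2, 31 genes lay over 4-fold above both other libraries of the group, eggshell genes among them. LP age control replicates 1 and 2 also stood apart, with 17 and 14 such genes, against 5 or fewer in the other libraries. In LP age control replicate 2, 6 genes known for expression in testis summed to 54 CPM. These 6 were chosen after their values were seen, so their sum describes that library and tests nothing. They summed to 5.38 and 2.06 in the other LP age controls and to between 0.444 and 4 in the other groups. The line difference was called for 1741 genes without LP age control replicate 1, and several of the results that rest on these libraries are given below with and without them.

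The line difference was called for 1661 of 9037 genes (18.4% of those tested). It was positive for 1005 (11.1%) and negative for 656 (7.26%), and 516 of the called genes, 226 positive and 290 negative, exceeded a 2-fold difference. With libraries scaled by their total counts alone, 729 of 1709 called genes were positive, a share of 42.7% against 60.5% with TMM. The size of the called differences was modest, with a median absolute value of 0.58 on the log2 scale. The response as a whole was far larger: 6502 genes (71.9%) were called between LP diapause and LP age control, and 6203 (68.6%) between HP diapause and HP age control. Across genes, which are not independent replicates, the LP and HP changes correlated at r = 0.749.

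**Figure D1:**
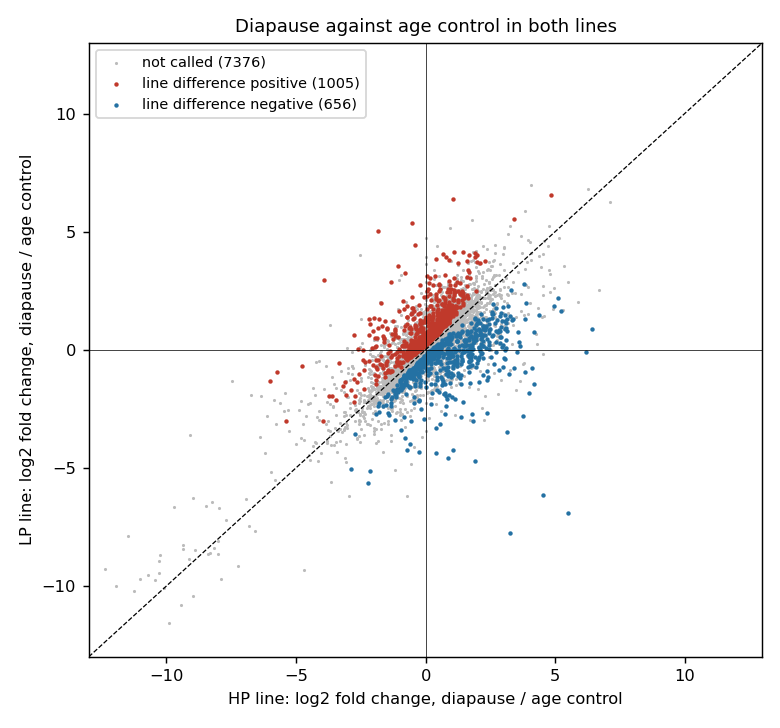
Each point is 1 of the 9037 genes tested, placed by its log2 fold change of diapause over age control in LP (vertical) and in HP (horizontal), with the dashed line marking equal change. The 1005 genes with a positive called line difference (red) lie above that line and the 656 with a negative one (blue) below it. Genes called in opposite directions in the lines, 145 in all, lie in the upper left and lower right quadrants.

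The largest class of called genes changed the same way in both lines. Of the 1661, 819 were called in the same direction in both lines, with the larger change in LP for 609 of them and in HP for 210. This split was counted with TMM scaling only, and the share of positive calls depended on the scaling, as given above. A further 375 were called in the LP change and not in the HP change, 316 in the HP change and not in the LP change, and 6 in neither. The other 145 changed in opposite directions, 72 higher in LP diapause and lower in HP diapause, and 73 the other way round. These 145 were all the genes with opposite calls among the 5238 genes called in both lines.

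The lines differed more often in the control state than in the arrested one. Between LP and HP, 2947 genes (32.6%) were called in diapause ovaries and 3782 (41.9%) in age controls. Of the 1661 genes with a line difference, 812 were called between the lines in age controls and not in diapause, and 390 in diapause and not in age controls. A call in both states in the same direction was found for 258, in opposite directions for 159, and in neither state for 42. Between chromosome arms the called share ran from 16.4% of 2169 genes on 3R to 19.7% of 1837 on 2R, and was 28.4% of 88 on chromosome 4. With genes ranked by mean level into 4 classes of equal size, the called share was 13.5% in the lowest class, 19.1% and 18.1% in the next and 22.8% in the highest. Called differences were largest in the lowest class (median absolute value 2.09) and smallest in the highest (0.38).

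**Figure D2:**
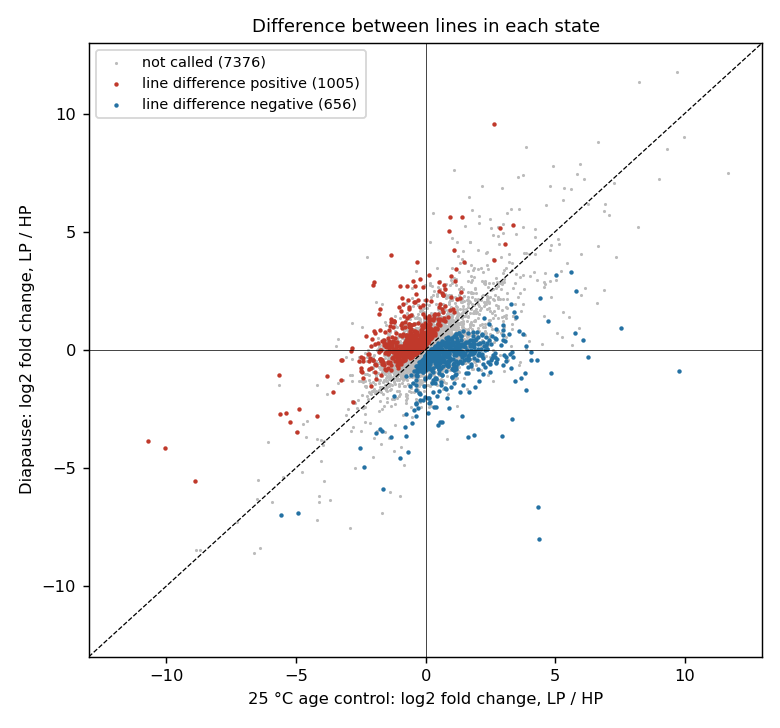
The same 9037 genes placed by the log2 fold change of LP over HP in diapause ovaries (vertical) and in 25 °C age controls (horizontal). Many called genes spread along the horizontal axis near a diapause difference of 0, which is the pattern of the 812 genes whose lines differed in age controls and not in diapause.

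At 12 °C the lines could also be set against each other without the age controls. The same line difference computed for diapause against reproductive ovaries, both from 12 °C, was called by edgeR for 0 of 9037 genes, with 366 at an unadjusted p under 0.05 and 6 called by DESeq2. The 2 line differences share the diapause libraries, so each is given with its own values and they were not tested against each other.

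Genes that changed in opposite directions in the lines included several with large differences. The RNA-binding gene tut (3L, 8209577 to 8210743), whose product works with Bam to restrain germ cell divisions in the testis, had 4.98, 5.61 and 5.87 CPM in LP diapause ovaries and 3.82, 3.39 and 3.31 in LP age controls. In HP, tut had 0.658, 1.40 and 0.570 CPM in diapause ovaries and 6.20, 6.43 and 4.76 in age controls. It rose in LP and fell in HP, with no overlap between diapause and age control in either line (log2 line difference 3.40, SE 0.35, adjusted p = 1.5e-06). In the reproductive ovaries from 12 °C, tut averaged 5.16 CPM in LP and 0.731 CPM in HP, values near those of the diapause ovaries of each line. The cell adhesion gene nrm (3L, 22998372 to 23040300) had 17.5, 12.8 and 17.2 CPM in LP diapause ovaries and 6.31, 6.65 and 7.15 in LP age controls. In HP, nrm had 18.3, 14.3 and 16.7 CPM in diapause ovaries and 54, 42.9 and 50.7 in age controls. Its HP age controls lay far above the other 9 libraries, while LP and HP diapause ovaries overlapped (log2 line difference 2.82, SE 0.19, adjusted p = 8.7e-09). The LP change of nrm was 1.24 and the HP change −1.58. Reproductive ovaries from 12 °C averaged 11.1 CPM of nrm in LP and 15 in HP. Hesr (X, 18204403 to 18205144), a basic helix-loop-helix repressor of the family that Notch signalling induces, had 12.9, 8.83 and 11.4 CPM in LP diapause ovaries and 6.63, 4.77 and 4.22 in LP age controls. In HP, Hesr had 1.38, 1.32 and 1.43 CPM in diapause ovaries and 6.05, 3.81 and 8.39 in age controls. Here the HP diapause libraries stood below the other 9 libraries, and the age controls of the lines overlapped (log2 line difference 3.22, SE 0.37, adjusted p = 4.4e-06). Hesr averaged 9.76 CPM in LP and 0.860 in HP reproductive ovaries from 12 °C.

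LManII (2L, 10457658 to 10462472), a lysosomal mannosidase gene, had 107, 111 and 113 CPM in LP diapause ovaries and 85.6, 86.1 and 63.7 in LP age controls. In HP, LManII had 28.6, 25.8 and 22.2 CPM in diapause ovaries and 78, 76.6 and 80.7 in age controls. The age controls of both lines lay together, and the diapause ovaries lay above them in LP and below them in HP (log2 line difference 2.11, SE 0.15, adjusted p = 1.5e-08). The transcription factor gene Sox102F (4, 800436 to 834393) had 6.93 ± 0.768 CPM in LP diapause ovaries, 4.89 ± 0.917 in LP age controls, 1.72 ± 0.162 in HP diapause ovaries and 6.65 ± 1.67 in HP age controls (SD, n = 3 each), a rise of 0.50 in LP and a fall in HP (HP change −1.95; log2 line difference 2.45, SE 0.30, adjusted p = 9.2e-06). Clk, the circadian activator gene, likewise rose in LP (0.71) and fell in HP (−0.58), at 8.21 ± 1.83 CPM in LP diapause ovaries, 5.03 ± 0.598 in LP age controls, 5 ± 0.386 in HP diapause ovaries and 7.48 ± 0.811 in HP age controls (SD, n = 3 each; log2 line difference 1.29, SE 0.27, adjusted p = 0.0023).

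Among genes lower in LP diapause and higher in HP diapause, Arc1 (2R, 14357927 to 14360297), which encodes a capsid-forming protein derived from a retrotransposon and known from synapses, had 71.7, 66.4 and 69.5 CPM in LP diapause ovaries and 124, 154 and 99.2 in LP age controls. In HP, Arc1 had 91.2, 92.4 and 77.2 CPM in diapause ovaries and 12, 12.4 and 11.7 in age controls. All 3 HP age controls stood at a level far below the other 9 libraries (log2 line difference −3.71, SE 0.17, adjusted p = 1.1e-10), so that Arc1 rose in HP by 2.85 and fell in LP (−0.86). Reproductive ovaries from 12 °C averaged 69.3 CPM of Arc1 in LP and 89 in HP, within the range of each line's diapause libraries. Ance (2L, 13905645 to 13909212), a peptidase gene related to angiotensin-converting enzyme, had 3.84, 2.89 and 4.83 CPM in LP diapause ovaries and 10.3, 9.85 and 11.2 in LP age controls. In HP, Ance had 17.3, 21.4 and 22.7 CPM in diapause ovaries and 9.15, 6.11 and 8.49 in age controls. The LP diapause libraries were the lowest and the HP diapause libraries the highest, with the age controls of both lines between them (log2 line difference −2.82, SE 0.27, adjusted p = 6.3e-07). NKCC (3R, 5489505 to 5502702), a sodium, potassium and chloride cotransporter gene, had 4.62, 5.18 and 5.32 CPM in LP diapause ovaries and 10.1, 10.6 and 11 in LP age controls. In HP, NKCC had 42, 28.6 and 35.2 CPM in diapause ovaries and 14.6, 10.9 and 15.2 in age controls. It showed the same order, with HP diapause highest and LP diapause lowest (log2 line difference −2.45, SE 0.24, adjusted p = 1.2e-06). Dro (2R, 14745961 to 14746714), which encodes the antimicrobial peptide Drosocin, had 0.415, 1.04 and 0.733 CPM in LP diapause ovaries and 4.19, 5.32 and 6.16 in LP age controls. In HP, Dro had 4.55, 4.34 and 6.33 CPM in diapause ovaries and 2.77, 1.19 and 2 in age controls. LP diapause libraries were lowest, and LP age controls overlapped HP diapause ovaries (log2 line difference −4.19, SE 0.46, adjusted p = 2.9e-06).

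The gene pst (3L, 7357275 to 7360263), known for restricting a picorna-like virus in flies, had 11.5, 14.5 and 12.9 CPM in LP diapause ovaries and 15.9, 16 and 14.4 in LP age controls. In HP, pst had 227, 229.6 and 232 CPM in diapause ovaries and 91.8, 84.4 and 90.4 in age controls. LP libraries were low in both states, with a small fall in diapause (−0.25), whereas HP libraries were high and rose by 1.37 (log2 line difference −1.62, SE 0.11, adjusted p = 8.4e-09). The means of pst in reproductive ovaries from 12 °C were 9.33 CPM in LP and 204 in HP. CkIIalpha-i3 (3L, 708601 to 710607) had 10.2 ± 1.39 CPM in LP diapause ovaries, 22.9 ± 0.771 in LP age controls, 27.4 ± 0.168 in HP diapause ovaries and 18 ± 1.49 in HP age controls (SD, n = 3 each; log2 line difference −1.78, SE 0.13, adjusted p = 1.8e-08). The cytochrome P450 gene Cyp4e2 (2R, 8444560 to 8447164) had 38.2 ± 1.93 CPM in LP diapause ovaries, 74.7 ± 2.66 in LP age controls, 62.4 ± 1.99 in HP diapause ovaries and 56.1 ± 1.86 in HP age controls (log2 line difference −1.12, SE 0.08, adjusted p = 1.9e-08), with a fall in LP (−0.97) and a small rise in HP (0.15). The monoamine transporter gene Vmat averaged 7.49 ± 1.91 CPM in LP diapause ovaries, 19.5 ± 1.71 in LP age controls, 9.39 ± 1.88 in HP diapause ovaries and 2.26 ± 2.21 in HP age controls (log2 line difference −3.43, SE 0.58, adjusted p = 0.00082). HP age control replicate 3 of Vmat stood at 4.80 CPM, against 1.19 and 0.781 in the others, and without it the line difference was −4.61. Vmat also overlaps CG13330 on the other strand over 2036 exon bases, and reads of the pair cannot be told apart if counting ignored strand.

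**Figure D3:**
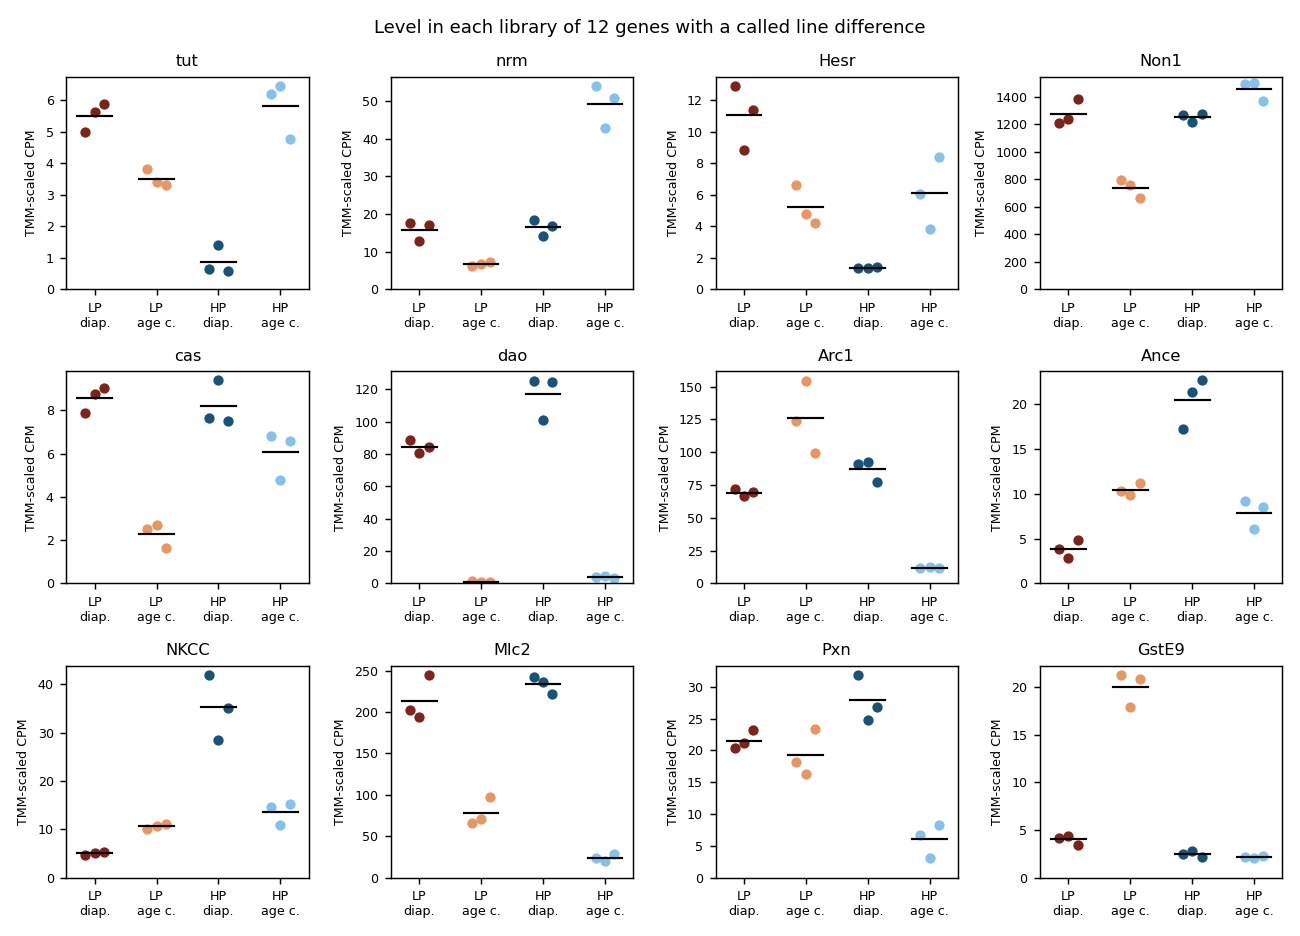
TMM-scaled CPM in each of the 12 libraries (points) with the group mean (bar) for 12 genes with a called line difference, in the order LP diapause, LP age control, HP diapause, HP age control. For nrm, Non1, Arc1, Mlc2 and GstE9 the separation between lines is larger in the age controls, and for tut, Hesr, Ance and NKCC it is larger in the diapause ovaries.

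Other large differences lay in genes expressed in 1 line or state. Dscam4 (3L, 8238647 to 8282398), a cell adhesion gene, had 2.70, 1.69 and 1.71 CPM in LP diapause ovaries and 0.0460, 0.275 and 0.0413 in LP age controls. In HP, Dscam4 had 101, 90.3 and 96.1 CPM in diapause ovaries and 65.3, 54.2 and 59 in age controls. It was close to 0 in LP age controls and low in LP diapause ovaries, while HP was high in both states, so that a rise of 4.04 in LP came from a level near 0 (log2 line difference 3.36, SE 0.44, adjusted p = 3.1e-05). LP age control replicate 2 was the highest of its group for Dscam4, and without it the line difference was 4.67. The sulfotransferase gene St3 averaged 6.75 ± 0.933 CPM in LP diapause ovaries and 0.446 ± 0.0681 in LP age controls. St3 averaged 0.355 ± 0.0511 CPM in HP diapause ovaries and 0.202 ± 0.161 in HP age controls. LP diapause ovaries were the highest of these groups (log2 line difference 3.11, SE 0.64, adjusted p = 0.0018). St3 was also high in LP reproductive ovaries, held at the same temperature as diapause ovaries (mean 4.24 CPM, against 0.415 in HP). Its level in LP was thus not particular to diapause. Without HP age control replicate 2 the line difference of St3 was 2.37. The dynein heavy chain gene Dhc98D averaged 7.58 ± 1.17 CPM in LP diapause ovaries and 0.879 ± 1.03 in LP age controls. Dhc98D averaged 1.78 ± 0.0907 CPM in HP diapause ovaries and 1.39 ± 0.435 in HP age controls (log2 line difference 2.76, SE 0.68, adjusted p = 0.0086). Reproductive ovaries averaged 7.92 CPM of Dhc98D in LP and 1.89 in HP, near the diapause ovaries of each line. LP age control replicate 2, the library with testis-expressed transcripts, held 2.06 CPM of Dhc98D, against 0.368 and 0.207 in the others, and the line difference ran from 2.28 to 4.35 when single libraries were left out. Phlpp (2L, 19059129 to 19063132), a phosphatase gene that acts on Akt, had 1.40, 1.64 and 2.14 CPM in LP diapause ovaries and 0.368, 0.871 and 0.413 in LP age controls. In HP, Phlpp had 13.1, 14.4 and 15.1 CPM in diapause ovaries and 0.429, 0.276 and 0.420 in age controls. Both lines rose in diapause, HP by 5.22 and LP by 1.63, and the age controls of the lines overlapped (log2 line difference −3.59, SE 0.45, adjusted p = 1.4e-05). The gene tnc, which encodes an extracellular matrix protein, averaged 8.29 ± 0.527 CPM in LP diapause ovaries, 2.99 ± 0.802 in LP age controls, 10.5 ± 3.73 in HP diapause ovaries and 0.499 ± 0.546 in HP age controls (log2 line difference −2.92, SE 0.60, adjusted p = 0.0026). HP age control replicate 3 of tnc stood at 1.12 CPM, against 0.286 and 0.0919 in the others, and without it the line difference was −4.30. The gene tbc averaged 0.277 ± 0.103 CPM in LP diapause ovaries, 5.72 ± 2.24 in LP age controls, 0.466 ± 0.199 in HP diapause ovaries and 0.574 ± 0.644 in HP age controls and was high in LP age controls only (log2 line difference −4.06, SE 0.88, adjusted p = 0.0027). HP age control replicate 3 of tbc held 1.31 CPM, against 0.0953 and 0.322 in the others, and without it the line difference was −5.48. LP age control replicate 2 held 8.30 CPM of tbc, against 4.24 and 4.63 in the other LP age controls. When single libraries were left out, the line difference of tbc ran from −5.48 to −3.56 and was called in each fit.

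For genes with 0 counts in a group, folds are bounds against a floor of 3 counts summed over the group. PPO2 (2R, 9042261 to 9044709), a prophenoloxidase gene of the crystal cells of the blood, had 11 counts in LP diapause ovaries and 0 in LP age controls, against 149 in HP diapause ovaries and 701 in HP age controls. The LP fold was at least 4.6, the HP fold was 0.285, and the LP fold was at least 16.1 times the HP fold (adjusted p = 0.00041). S-Lap1, a leucyl aminopeptidase gene of sperm, had 4 counts in LP diapause ovaries and 374 in LP age controls, against 7 in HP diapause ovaries and 0 in HP age controls. LP age control replicate 2 held 14.9 CPM of it, against 1.75 and 0.455 in the other LP age controls. S-Lap1 was called (adjusted p = 0.04), and in 9 of the 12 fits that left out 1 library it was not. Those 9 left out a library of LP diapause, HP diapause or HP age control. The call held without each LP age control library, replicate 2 included.

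The gene dao (2L, 15248879 to 15254715) rose in diapause in both lines, with 88.8, 80.3 and 84 CPM in LP diapause ovaries and 1.29, 0.688 and 0.744 in LP age controls. In HP, dao had 125, 101 and 125 CPM in diapause ovaries and 4.05, 4.50 and 3.68 in age controls. It rose by 6.54 in LP and by 4.84 in HP, and the LP age controls all lay below those of HP (line difference 1.70, SE 0.21, adjusted p = 9.3e-06). Levels of dao in reproductive ovaries from 12 °C averaged 84 CPM in LP and 118 in HP, near the diapause ovaries of each line. The sodium pump subunit gene nrv3 rose by 6.81 in LP and 6.28 in HP, and its line difference did not pass (0.53, SE 0.22, adjusted p = 0.097). Reproductive ovaries from 12 °C averaged 309 CPM of nrv3 in LP and 122 in HP.

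Gene lists grouped the remaining genes by role. Members were counted as called in the line difference, and each count can be read against the 18.4% of all genes tested, or against 11.1% for positive and 7.26% for negative calls. The median line difference of all genes tested was 0.03. Members named beyond the naming rule were chosen after their values were seen.

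Genes of the cytosolic ribosome formed the list with the most called members (76.2% of those tested), while the called share was higher for muscle genes (80%). Of 84 ribosomal protein genes tested, 64 were called positive and 0 negative, and 83 had a positive value (median line difference 0.45). All 84 rose in LP diapause ovaries and 82 rose in HP diapause ovaries, with median changes of 1.01 and 0.55. The lines were close in diapause, where 3 members were higher and 6 lower in LP than in HP (median −0.05). In age controls 81 members were lower in LP and 0 higher (median −0.50). Ribosomal protein transcripts took 19.3% ± 0.150 of counts in LP diapause ovaries and 11.2% ± 1.15 in LP age controls, against 20.2% ± 0.800 in HP diapause ovaries and 15.2% ± 1.76 in HP age controls (SD, n = 3 each). RpL5, a protein of the large subunit that binds the 5S RNA, had 4085, 4198 and 4261 CPM in LP diapause ovaries and 2785, 2522 and 2261 in LP age controls. In HP, RpL5 had 3368, 3692 and 3442 CPM in diapause ovaries and 3180.0, 3823 and 3149 in age controls (log2 line difference 0.68, SE 0.11, adjusted p = 0.00016). It was higher in diapause in every LP library, and its HP groups overlapped. RpS9 of the small subunit had 1232 ± 40.5 CPM in LP diapause ovaries, 576 ± 60.4 in LP age controls, 1127 ± 48.4 in HP diapause ovaries and 811 ± 92.7 in HP age controls (log2 line difference 0.62, SE 0.11, adjusted p = 0.00032). The count of 64 fell to 30 in a fit to the 12 libraries alone and to 48 without both LP replicates 2 (diapause and age control), and it was 0 when edgeR tested against a 1.5-fold change.

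Genes that build ribosomes moved in the same direction. Of 32 ribosome biogenesis genes, 16 were called positive and 0 negative (median 0.32), and 26 were lower in LP than in HP age controls. Non1 (2R, 9396265 to 9398734), a nucleolar GTPase gene of large-subunit assembly, had 1212, 1238 and 1383 CPM in LP diapause ovaries and 795, 755 and 664 in LP age controls. In HP, Non1 had 1271, 1214 and 1273 CPM in diapause ovaries and 1496, 1501 and 1371 in age controls. LP age controls lay below all others, so that Non1 rose in LP (0.79) and fell slightly in HP (−0.22; log2 line difference 1.01, SE 0.09, adjusted p = 3.9e-07). Polr1B, which encodes the second-largest subunit of RNA polymerase I, had 221, 211 and 236 CPM in LP diapause ovaries and 82.4, 72 and 69.8 in LP age controls. In HP, Polr1B had 243, 245 and 232 CPM in diapause ovaries and 133, 143 and 127 in age controls. It rose in both lines, more in LP, from age controls in which LP was the lower line (log2 line difference 0.74, SE 0.09, adjusted p = 1.2e-05). Among 41 translation factor genes, 15 were called positive and 2 negative (median 0.18). The initiation factor gene eIF3e averaged 424 ± 5.63 CPM in LP diapause ovaries, 314 ± 20.2 in LP age controls, 432 ± 10.5 in HP diapause ovaries and 436 ± 25.8 in HP age controls (log2 line difference 0.45, SE 0.07, adjusted p = 0.00028). The elongation factor isoform gene eEF1alpha2 went the other way, with 5.97, 5.50 and 5.50 CPM in LP diapause ovaries and 4.60, 6.60 and 5.37 in LP age controls. In HP, eEF1alpha2 had 5.68, 3.09 and 4.05 CPM in diapause ovaries and 1, 0.827 and 1.17 in age controls. Its HP age controls were the lowest libraries and its LP groups overlapped (log2 line difference −2.06, SE 0.33, adjusted p = 0.00021).

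Of 33 aminoacyl-tRNA synthetase genes, 7 were called positive and 0 negative (median 0.15), with IleRS at 0.38, SE 0.07 and AsnRS at 0.33, SE 0.09. Mitochondrial ribosomal protein genes gave 4 positive calls among 72 (5.56%, median 0.10), mRpS5 (0.42, SE 0.09) and mRpS2 (0.41, SE 0.09) among them. Oxidative phosphorylation genes gave 4 among 71 (5.63%, median 0.13), with ATPsynbeta at 0.43, SE 0.09 and Cyt-c1 at 0.34, SE 0.08. Both shares lay under the 11.1% of all genes. When 1 library was left out, the mitochondrial ribosome list held 3 to 10 calls, highest without HP age control replicate 1. The oxidative phosphorylation list held 4 to 12, highest without HP age control replicate 3. The count of the synthetases became 4 without LP diapause replicate 3. The proteasome list had 0 positive calls and 1 negative among 33 (Prosbeta1, −0.30, SE 0.10), which lost its call in 8 of the 12 fits that left out 1 library. Over these fits the proteasome list had 0 to 3 called members, with 3 without HP age control replicate 2. Among 19 autophagy genes 3 were called positive and 1 negative, with Atg101 at 0.55, SE 0.10 and Atg9 at 0.44, SE 0.10.

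**Figure D4:**
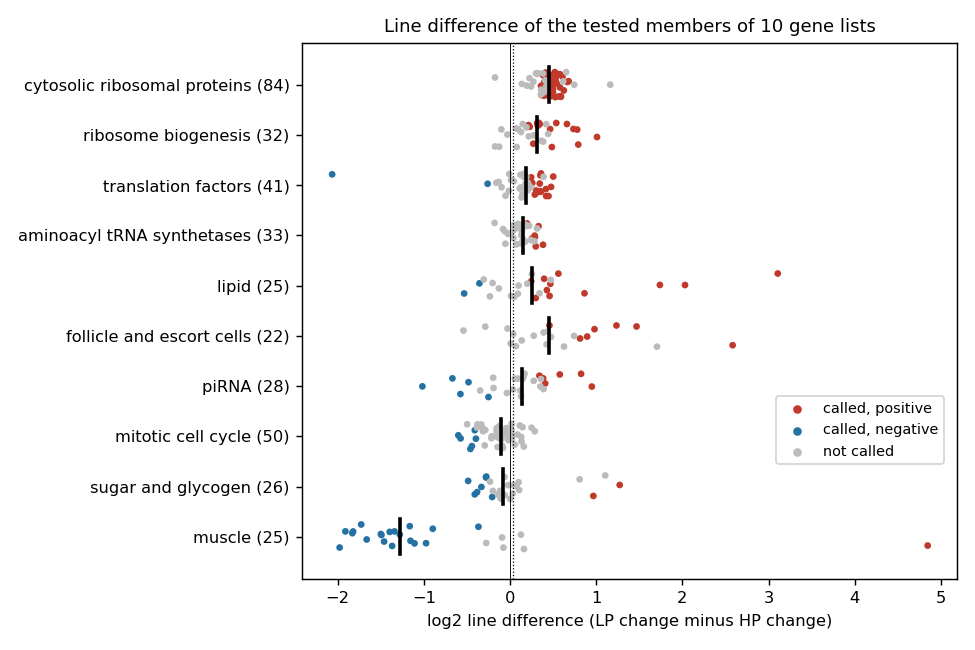
Log2 line difference of the tested members of 10 gene lists (1 point each; number tested in parentheses), with the list median as a bar and the median of all genes as a dotted line. Ribosomal protein genes lie to the right of 0 with 64 of 84 called positive, and muscle genes lie to the left with 19 of 25 called negative.

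Muscle genes showed the opposite sign. The ovary is wrapped in a sheath of muscle, and of 25 muscle genes tested 19 were called negative and 1 positive (median −1.28). Muscle genes rose in diapause in both lines, 19 members in LP and 21 in HP, with median changes of 0.73 and 1.93. In age controls 21 members were higher in LP than in HP (median 0.92), and in diapause 3 were higher and 5 lower. Myosin light chain gene Mlc2 (3R, 30171438 to 30174551) had 202, 195 and 245 CPM in LP diapause ovaries and 66.2, 71.1 and 97.4 in LP age controls. In HP, Mlc2 had 242, 237 and 222 CPM in diapause ovaries and 24, 20.3 and 28.3 in age controls. The diapause libraries of both lines overlapped, and the HP age controls were the lowest (log2 line difference −1.82, SE 0.24, adjusted p = 0.00013). Mlc1 had 34.1 ± 4.50 CPM in LP diapause ovaries, 19.6 ± 2.57 in LP age controls, 40.7 ± 5.71 in HP diapause ovaries and 6.22 ± 1.67 in HP age controls (SD, n = 3 each; log2 line difference −1.91, SE 0.27, adjusted p = 0.00016). The positive call was the troponin C gene TpnC41C (4.85, SE 0.94, adjusted p = 0.0010, and 6.35 without LP age control replicate 2). TpnC41C held only 0 to 44 counts per library, so the size of its difference rests on levels near 0. The list took 0.235% ± 0.0198 of counts in LP diapause ovaries and 0.180% ± 0.0186 in LP age controls, against 0.260% ± 0.0144 in HP diapause ovaries and 0.116% ± 0.0101 in HP age controls. The amount of muscle left on the dissected ovaries was not measured, and its part in the result was not tested. Between 16 and 20 members had a call in the fits that left out 1 library, and 14 passed against a 1.5-fold difference.

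Blood cell markers did not move together. Of 10 haemocyte genes 4 were called positive and 2 negative (median −0.06). The peroxidasin gene Pxn, an enzyme of basement membranes made by haemocytes, had 20.3, 21.1 and 23.2 CPM in LP diapause ovaries and 18.1, 16.3 and 23.4 in LP age controls. In HP, Pxn had 31.9, 24.8 and 26.8 CPM in diapause ovaries and 6.72, 3.12 and 8.30 in age controls. Its HP age controls were low, and its LP groups overlapped (log2 line difference −2.05, SE 0.37, adjusted p = 0.0013). The other negative call was Hml, a haemocyte clotting gene (−1.87, SE 0.62, adjusted p = 0.041), which lost its call in 8 of the 12 fits that left out 1 library. The collagen IV genes Col4a1 (0.85, SE 0.23) and vkg (0.71, SE 0.19) and the basement membrane gene SPARC (0.46, SE 0.12), which follicle cells also express, were called positive, as was PPO2. The list took 0.213% ± 0.0277 of counts in LP diapause ovaries and 0.0853% ± 0.0080 in LP age controls, against 0.255% ± 0.0237 in HP diapause ovaries and 0.127% ± 0.0129 in HP age controls. Fat body markers gave 1 positive call among 5 (FASN1), the oviduct and sperm store list 1 negative among 6 (Oseg1, −0.52, SE 0.11), and neuron markers 0 among 7, with 0 at an unadjusted p under 0.05 by edgeR and 0 called by DESeq2. Oseg1 held 443 to 1482 counts in every library, so its call was not read as a sign of oviduct tissue. It also shares 512 exon bases with Exo70 on the other strand. Leaving out 1 library gave 1 to 2 calls on the fat body list and on the oviduct list.

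Follicle and escort cell genes were called positive for 7 of 22 and negative for 0 (median 0.45), and 13 were lower in LP than in HP age controls. The zinc finger gene cas (3R, 5712975 to 5716805), which acts in the precursors of polar and stalk cells, had 7.89, 8.78 and 9.04 CPM in LP diapause ovaries and 2.53, 2.70 and 1.65 in LP age controls. In HP, cas had 7.66, 9.42 and 7.52 CPM in diapause ovaries and 6.82, 4.78 and 6.58 in age controls. The diapause libraries of both lines overlapped, and the LP age controls were the lowest (log2 line difference 1.47, SE 0.25, adjusted p = 0.00037). The gene peb, whose product Hindsight takes follicle cells from division into the endocycle, had 111, 90.6 and 111 CPM in LP diapause ovaries and 45.7, 45.2 and 41.4 in LP age controls. In HP, peb had 97.6, 83.4 and 87.2 CPM in diapause ovaries and 75.5, 59.9 and 63.8 in age controls. It rose in both lines and more in LP (log2 line difference 0.81, SE 0.14, adjusted p = 0.00032). The gene eya, which sets main-body follicle cells apart from polar and stalk cells, had 66.6, 65.3 and 79 CPM in LP diapause ovaries and 27.5, 23.4 and 17.9 in LP age controls. In HP, eya had 97.9, 82 and 91.5 CPM in diapause ovaries and 59.3, 55.4 and 49.7 in age controls. LP age controls were again the lowest group (log2 line difference 0.89, SE 0.17, adjusted p = 0.0014). The gene hh, the Hedgehog ligand of the germarium's somatic cells, was called positive at 2.58 (SE 0.81, adjusted p = 0.031) and lost its call in 7 of the 12 fits that left out 1 library.

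**Figure D5:**
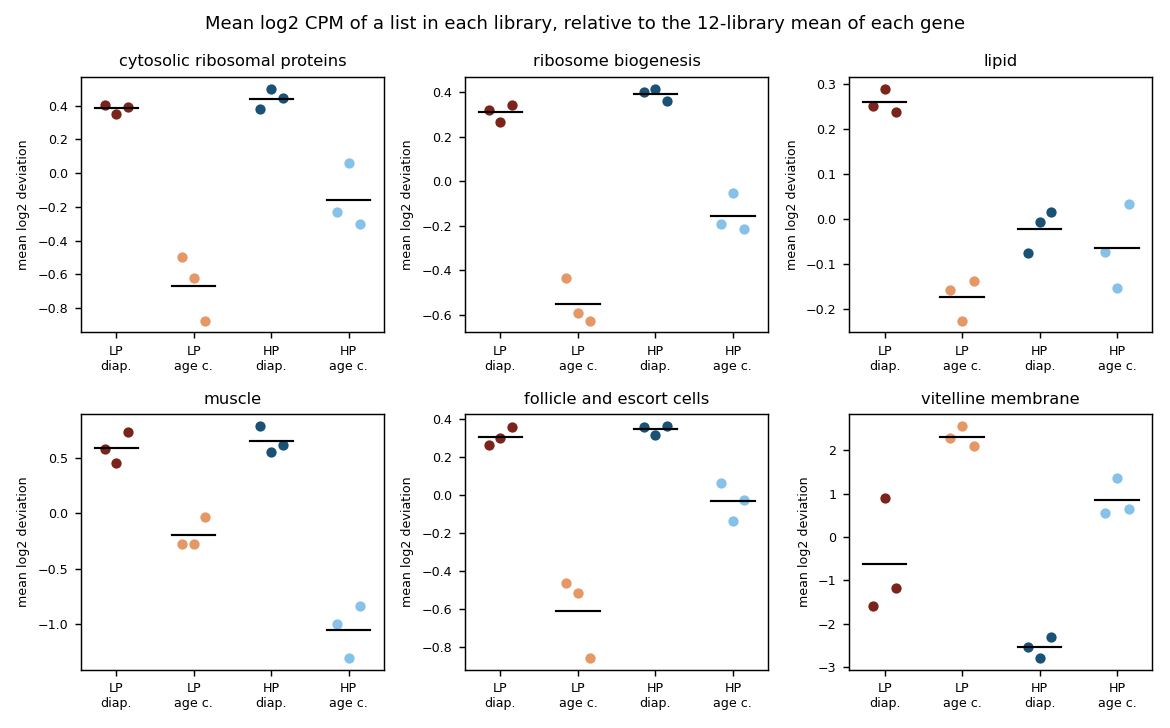
Mean over the tested members of 6 lists of the log2 CPM relative to each gene's mean in the 12 libraries, for each library (points) and group (bar). Diapause ovaries of the lines lie close together for ribosomal proteins, ribosome biogenesis, muscle and follicle and escort cells, and the age controls of the lines lie apart. For vitelline membrane genes LP diapause replicate 2 is the high point of its group.

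Most eggshell genes fell in diapause in both lines, and 1 eggshell gene, which rose in both, had a called line difference. All 14 chorion genes fell in both lines, and 0 had a called line difference by edgeR or DESeq2, with 0 at an unadjusted p under 0.05 (median 1.19, which was −0.08 without LP diapause replicate 2). Chorion genes took 0.0017% ± 0.0016 of counts in LP diapause ovaries and 0.774% ± 0.0973 in LP age controls, against 0.00053% ± 0.00013 in HP diapause ovaries and 0.509% ± 0.167 in HP age controls. These genes are switched on in egg chambers older than those named in the labels. Of 12 vitelline membrane genes 9 fell and 1 rose in LP, and 11 fell and 1 rose in HP. Between the lines, 9 were higher and 1 lower in LP in diapause, and 7 were higher and 1 lower in LP in age controls. The line difference gave 1 call (median 0.89, and 0.10 without LP diapause replicate 2). The called gene was clos, an eggshell protein gene needed for Torso signalling, at 549.6 ± 27 CPM in LP diapause ovaries, 322 ± 51.3 in LP age controls, 648 ± 33.4 in HP diapause ovaries and 497 ± 23.8 in HP age controls (log2 line difference 0.39, SE 0.11, adjusted p = 0.021). Unlike most of its list, clos rose in diapause in both lines, by 0.77 in LP and by 0.38 in HP. In 3 of the 12 fits that left out 1 library clos was not called. Of 4 yolk genes 1 rose and 1 fell in LP, and 1 rose and 2 fell in HP. In diapause 3 of them were higher in LP than in HP, and 0 differed between the lines in age controls by edgeR. Their line difference was called for 0 by edgeR or DESeq2, with 2 at an unadjusted p under 0.05. Yp1 had 578 ± 124 CPM in LP diapause ovaries, 595 ± 103 in LP age controls, 297 ± 21.1 in HP diapause ovaries and 484 ± 137 in HP age controls (0.66, SE 0.28, adjusted p = 0.12), Yp2 gave 0.59, SE 0.24, adjusted p = 0.098, and Yp3 gave 0.23, SE 0.32, adjusted p = 0.68.

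In the germline, stem cell and differentiation genes were called positive for 6 of 26 and negative for 1 (median 0.10). Beside tut they included the helicase gene vas, with 290.2, 305 and 312 CPM in LP diapause ovaries and 256, 246 and 244 in LP age controls. In HP, vas had 249.5, 237 and 239 CPM in diapause ovaries and 268, 255 and 263 in age controls. These values were close, and LP diapause ovaries were the highest group (log2 line difference 0.40, SE 0.06, adjusted p = 0.00017). The vas gene shares 388 exon bases with solo on the same strand, which was also called positive (0.75) and lost its call in 8 of the 12 fits that left out 1 library. Also called positive were bam, the differentiation factor of cystoblasts (0.58, SE 0.15, adjusted p = 0.013), and Sxl (0.52, SE 0.10). The translational repressor gene nanos fell in both lines and its line difference did not pass (0.32, SE 0.14, adjusted p = 0.12). Of 19 meiotic recombination genes, 4 were called positive and 3 negative, and 2 in all without LP age control replicate 3. The synaptonemal complex gene c(3)G had 154, 154 and 166 CPM in LP diapause ovaries and 65, 56.6 and 61.1 in LP age controls. In HP, c(3)G had 193, 180.2 and 187 CPM in diapause ovaries and 110.2, 106 and 106 in age controls, with the groups of each line apart (log2 line difference 0.58, SE 0.08, adjusted p = 2.3e-05). The crossover factor gene vilya (X, 2726678 to 2727568) had 20.2, 21 and 22.7 CPM in LP diapause ovaries and 1.80, 1.51 and 1.45 in LP age controls. In HP, vilya had 23.6, 23.1 and 21.5 CPM in diapause ovaries and 4.38, 5.33 and 4.15 in age controls. Diapause libraries of both lines overlapped, and LP age controls were the lowest (log2 line difference 1.45, SE 0.19, adjusted p = 2.5e-05).

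The piRNA pathway, which silences transposons in the germline, had 7 positive and 5 negative calls among 28 genes (42.9%, median 0.14). The export factor paralogue nxf2, which acts in piRNA-guided silencing of transcription, had 73.4, 79.4 and 76.3 CPM in LP diapause ovaries and 91.8, 99.3 and 97.5 in LP age controls. In HP, nxf2 had 57.7, 61.5 and 60.4 CPM in diapause ovaries and 44.8, 51.2 and 46.4 in age controls (log2 line difference −0.67, SE 0.09, adjusted p = 2.1e-05). It fell in LP and rose in HP. The gene cuff, of the complex that licenses dual-strand clusters, had 9.03, 8.39 and 8.98 CPM in LP diapause ovaries and 11.9, 13.1 and 13.2 in LP age controls. In HP, cuff had 12.9, 10.3 and 12 CPM in diapause ovaries and 9.06, 7.99 and 8.21 in age controls, and the gene rhi of the same complex was also called negative (−0.58, SE 0.11). LP diapause and HP age controls of cuff lay together at the low end (log2 line difference −1.02, SE 0.15, adjusted p = 8.1e-05). Called positive were fs(1)Yb (0.95, SE 0.22) and qin (0.82, SE 0.15), among others. Of 21 oocyte and maternal genes, 4 were called positive and 1 negative, and 3 in all without LP diapause replicate 1. The translational regulator orb had 1302 ± 109 CPM in LP diapause ovaries, 545 ± 85.6 in LP age controls, 1342 ± 87.6 in HP diapause ovaries and 867 ± 58.5 in HP age controls (log2 line difference 0.63, SE 0.13, adjusted p = 0.0017), with the diapause ovaries of both lines at like levels and the LP age controls lowest. The kinase gene png, needed at egg activation, had 21.3 ± 0.614 CPM in LP diapause ovaries, 48.6 ± 7.71 in LP age controls, 36.5 ± 0.795 in HP diapause ovaries and 55.3 ± 4.52 in HP age controls (log2 line difference −0.59, SE 0.13, adjusted p = 0.0025).

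Cell division genes fell in diapause in both lines, 48 of 50 mitotic genes in each, and 6 had a negative and 0 a positive line difference (median −0.10). The meiotic activator of the anaphase-promoting complex cort had 23.1, 27.3 and 20.8 CPM in LP diapause ovaries and 76.4, 78.1 and 79.6 in LP age controls. In HP, cort had 30.3, 28 and 28.7 CPM in diapause ovaries and 58.6, 65.3 and 64.5 in age controls. It fell more in LP (−1.71) than in HP (−1.11; log2 line difference −0.60, SE 0.12, adjusted p = 0.0017). The spindle kinesin gene Klp3A had 58.6 ± 3.60 CPM in LP diapause ovaries, 150.0 ± 22.5 in LP age controls, 72 ± 2.04 in HP diapause ovaries and 124 ± 9.61 in HP age controls (log2 line difference −0.57, SE 0.12, adjusted p = 0.0016). Leaving out 1 library gave 3 to 9 calls on the mitotic list, lowest without LP diapause replicate 3 and highest without LP age control replicate 1. DNA replication genes gave 3 negative and 0 positive calls among 39, with the GINS subunit gene Psf1 at −1.05, SE 0.21 and thymidylate synthase gene Ts at −0.50, SE 0.11. The replication list held 2 to 6 calls when 1 library was left out, lowest without HP diapause replicate 1 and highest without LP age control replicate 1. DNA damage genes gave 4 negative and 1 positive among 38, with the repair genes Xpc (−0.44, SE 0.06) and mre11 (−0.41, SE 0.09). Both rose in HP (0.41 and 0.43), and their LP changes were −0.03 and 0.03 and did not pass.

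Histone methylation genes are the subject of the series, and their called shares are read against the 18.4% of all genes. Of 17 genes on the methyltransferase list 1 was called positive and 1 negative (11.8%), of 14 on the demethylase list 2 were called positive (14.3%), and of 32 Polycomb, trithorax and Brahma genes 0 were called by edgeR, with 3 at an unadjusted p under 0.05 and 2 called by DESeq2. Leaving out 1 library gave 1 to 4 called members on the methyltransferase list (lowest without LP diapause replicate 3), 0 to 3 on the Polycomb list (both highest without HP age control replicate 2) and 2 to 4 on the demethylase list (highest without HP age control replicate 3). The methyltransferase and demethylase shares, this close to that of all genes and on lists this short, are not a result about the members. The share of the Polycomb list (0%) lay below the 18.4%, and whether that list differs from all genes was not tested. Set2, which methylates lysine 36 of histone H3, had 219.5, 245 and 268 CPM in LP diapause ovaries and 281, 284 and 267 in LP age controls. In HP, Set2 had 229, 182 and 216 CPM in diapause ovaries and 363, 288 and 313 in age controls. It fell in HP (−0.62), and its LP change (−0.18) did not pass (log2 line difference 0.43, SE 0.12, adjusted p = 0.015). Without LP diapause replicate 3 the line difference of Set2 was not called (adjusted p = 0.052). SmydA-9, a SET and MYND domain gene, rose in both lines and more in HP, at 2.80 ± 0.401 CPM in LP diapause ovaries, 1.28 ± 0.320 in LP age controls, 5.14 ± 0.780 in HP diapause ovaries and 0.592 ± 0.460 in HP age controls (log2 line difference −1.98, SE 0.51, adjusted p = 0.0095; −2.81 without HP age control replicate 3). The demethylase genes Kdm3 (0.65, SE 0.13) and Kdm2 (0.43, SE 0.09) were called positive. Kdm3 shares 347 exon bases with CG8176 on the same strand. NSD fell in both lines and its line difference did not pass (LP change −1.52, HP change −1.39; line difference −0.13, SE 0.12, adjusted p = 0.52), as did Kdm4A (−1.07 and −1.13; 0.05, SE 0.11, adjusted p = 0.79) and Kdm5 (−1.06 and −0.97; −0.10, SE 0.15, adjusted p = 0.72). For Set1 the line difference was 0.02, SE 0.09, adjusted p = 0.93.

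Among genes of metabolism, lipid genes had 11 positive and 2 negative calls among 25 genes (median 0.25). In diapause 11 members were higher and 1 lower in LP than in HP, and in age controls 6 were higher and 11 lower. The acetyl-CoA synthetase gene AcCoAS (3L, 21270722 to 21280243) had 178, 183 and 188 CPM in LP diapause ovaries and 76.2, 71.5 and 72.6 in LP age controls. In HP, AcCoAS had 147, 160.0 and 158 CPM in diapause ovaries and 118, 104 and 117 in age controls. LP diapause libraries were the highest and LP age controls the lowest (log2 line difference 0.86, SE 0.08, adjusted p = 2.8e-07). The fatty acid synthase gene FASN3 (3L, 25752859 to 25762779) had 77.5, 85.1 and 82 CPM in LP diapause ovaries and 5.85, 4.58 and 7.85 in LP age controls. In HP, FASN3 had 38.1, 38.5 and 38.6 CPM in diapause ovaries and 8.58, 9.92 and 10.4 in age controls. It rose in both lines, by 3.73 in LP and 1.99 in HP (log2 line difference 1.74, SE 0.17, adjusted p = 8e-07). FASN3 averaged 79.2 CPM in LP and 36.9 in HP reproductive ovaries from 12 °C, near the diapause ovaries of each line. Its paralogues FASN1 (0.56, SE 0.15) and FASN2 (3.11, SE 0.68, adjusted p = 0.0029) were also called positive. Zw, the glucose-6-phosphate dehydrogenase that supplies NADPH for such synthesis, had 48.5, 48 and 55.9 CPM in LP diapause ovaries and 19.9, 16.7 and 16.6 in LP age controls. In HP, Zw had 35.4, 41.5 and 36.4 CPM in diapause ovaries and 25.7, 26.2 and 25.4 in age controls (log2 line difference 0.97, SE 0.12, adjusted p = 1.7e-05), an order of groups like that of AcCoAS. The sugar and glycogen list as a whole had 2 positive and 7 negative calls among 26 (median −0.09). The 7 negative calls were Pfk, Hex-A (−0.41), PyK (−0.38), Tpi (−0.33), Pglym78 (−0.28) and Eno (−0.21), which encode enzymes of glycolysis, and AGBE (−0.28), the glycogen branching enzyme. Pglym78 and Eno each lost their call in 9 of the 12 fits that left out 1 library, and Tpi in 1. The phosphofructokinase gene Pfk had 88.9 ± 5.74 CPM in LP diapause ovaries, 131 ± 4.47 in LP age controls, 105 ± 2.94 in HP diapause ovaries and 109.9 ± 4.83 in HP age controls (log2 line difference −0.49, SE 0.08, adjusted p = 0.00024). Pfk fell in LP (−0.55), and its HP change (−0.07) did not pass.

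Hormone and clock genes were called at shares near or below the 18.4% of all genes. Insulin and TOR genes had 3 positive calls among 23 (13%), with 1 called member without HP diapause replicate 2 and 8 without HP age control replicate 2. Ilp6 (X, 2331493 to 2334658), an insulin-like peptide gene, had 108, 79 and 86.2 CPM in LP diapause ovaries and 13.8, 17.9 and 9.13 in LP age controls. In HP, Ilp6 had 54.9, 60.2 and 62.8 CPM in diapause ovaries and 32.4, 22.7 and 25.4 in age controls. It rose in both lines, and LP lay below HP in age controls and above it in diapause ovaries (log2 line difference 1.60, SE 0.31, adjusted p = 0.0028). The TSC2 gene gig (0.36, SE 0.11, adjusted p = 0.029) and foxo (0.31, SE 0.10, adjusted p = 0.047) lost their calls in 6 and 9 of the 12 fits that left out 1 library. Juvenile hormone and ecdysone genes had 4 positive and 1 negative call among 27 (18.5%), with 3 called members without LP diapause replicate 2 and 8 without HP age control replicate 2. The ecdysteroid synthesis gene nvd had 8.07 ± 0.491 CPM in LP diapause ovaries, 4.70 ± 0.533 in LP age controls, 10.1 ± 2.16 in HP diapause ovaries and 11.3 ± 2.43 in HP age controls (log2 line difference 0.95, SE 0.24, adjusted p = 0.007), and the ecdysone receptor gene EcR gave 0.38, SE 0.11, adjusted p = 0.018 and lost its call in 3 of the 12 fits that left out 1 library. Kr-h1, a target of juvenile hormone, was called positive (2.08, SE 0.64, adjusted p = 0.035) and lost its call in 9 of these fits, and the ecdysone-induced Eip78C was called negative (−1.96, SE 0.49). Of 11 clock genes 2 were called positive (18.2%), Clk and the repressor gene cwo (0.55, SE 0.12, adjusted p = 0.0027), whereas tim did not pass (0.53, SE 0.21, adjusted p = 0.089). The RNA-binding gene cpo, linked to diapause in natural populations, rose in LP (0.40) and HP (0.74), and its line difference did not pass (−0.34, SE 0.16, adjusted p = 0.15).

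Transport, defence and cell death genes had calls in both directions. Sodium transport genes had 2 positive and 3 negative calls among 16 (3 in all without LP diapause replicate 3), with the exchanger gene Nhe3 rising in LP and falling in HP, at 146 ± 7.53 CPM in LP diapause ovaries, 122 ± 2.42 in LP age controls, 86.9 ± 3.20 in HP diapause ovaries and 111 ± 2.65 in HP age controls (log2 line difference 0.61, SE 0.07, adjusted p = 9.6e-06). Immune genes had 2 positive and 5 negative among 20. The NF-kappaB gene Rel had 126 ± 9.25 CPM in LP diapause ovaries, 81.8 ± 3.87 in LP age controls, 118 ± 3.67 in HP diapause ovaries and 111 ± 4.85 in HP age controls (log2 line difference 0.54, SE 0.08, adjusted p = 0.00014), a rise in LP with an HP change of 0.08 that did not pass. Cytochrome P450 genes had 4 positive and 10 negative calls among 53, with Cyp6v1 at −0.58, SE 0.07. Glutathione transferase genes had 4 of each among 28 (5 in all without LP age control replicate 2). GstE9 (2R, 18409048 to 18409835) had 4.20, 4.42 and 3.42 CPM in LP diapause ovaries and 21.3, 17.9 and 20.8 in LP age controls. In HP, GstE9 had 2.51, 2.80 and 2.22 CPM in diapause ovaries and 2.15, 2.11 and 2.24 in age controls. LP age controls stood far above the other 9 libraries (log2 line difference −2.52, SE 0.27, adjusted p = 2.3e-06), while GstS1 fell in HP (−0.57) and gave a positive line difference (0.71, SE 0.09). Apoptosis genes had 3 positive and 1 negative among 15 (2 in all without HP diapause replicate 3). The caspase gene Strica had 11.8 ± 1.36 CPM in LP diapause ovaries, 16.5 ± 0.547 in LP age controls, 5.70 ± 0.402 in HP diapause ovaries and 15.9 ± 0.480 in HP age controls (log2 line difference 1.00, SE 0.18, adjusted p = 0.00052), a fall in both lines that was larger in HP, and Dark, the apoptosome adaptor, gave 0.58, SE 0.16, adjusted p = 0.017. Dark lost its call without HP diapause replicate 3 and without HP age control replicate 1 (highest adjusted p = 0.052). It overlaps an antisense RNA gene over 1590 exon bases, which limits its value if counting ignored strand. Heat shock genes had 1 positive call among 22 (Hsc70-5, 0.36, SE 0.07) and genes of the endoplasmic reticulum 2 negative among 21, CaBP1 (−0.31, SE 0.10) and ERp60 (−0.21, SE 0.07), each lost in 8 of the 12 fits that left out 1 library. Leaving out 1 library gave 1 to 6 called members for heat shock (highest without LP age control replicate 1) and 0 to 5 for the endoplasmic reticulum (highest without LP age control replicate 3).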

How the data were processed

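Poly-A RNA of ovaries was extracted with a mirVana kit and made into NEBNext Ultra II Directional libraries, per the labels' protocols. The authors deposited 1 table of raw read counts per gene (17611 genes, 18 libraries), whole numbers in the featureCounts layout, not normalised and not pooled, per the file headers. Tools listed, with no version or role, in the submitters' processing notes are Trimmomatic, STAR, featureCounts and DESeq2. The sources used here give neither the genome build nor whether counting used strand. Genes that overlap are therefore uncertain, and 32 of the 95 named genes share exon bases with another gene. Reads that map worse in 1 line because of sequence differences would change a level in that line in both states.

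Symbols came from the Ensembl BDGP6.54 annotation (17556 identifiers matched, 17540 with the same coordinates, including all 95 named genes). Of the genes, 9037 passed filterByExpr. Counts were scaled by TMM (factors 0.9425 to 1.134 in the 12 libraries) and all 18 libraries were fitted by edgeR 4.0.16 (robust quasi-likelihood; limma 3.58.1, R 4.3.3) with 1 mean per group and no covariate. This left 12 residual degrees of freedom, and the common BCV (biological coefficient of variation) was 0.0973. The contrast was tested directly as an interaction. With DESeq2 1.42.0, other scalings, no filter, a fit to 12 libraries, a 1.5-fold threshold, a replicate block and each library left out, results were recomputed. No libraries of a group agreed within sampling noise (chi-square per gene 4.98 to 44.9). Counts limit precision at low levels.

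The groups, the comparison, the 39 gene lists and the rule for named genes were chosen with earlier results of these data known. The rule took called genes that carry a name and code for protein by their symbol, reach 5 CPM in 1 group or more, and do not overlap between states in at least 1 line. It kept the 8 largest positive and 8 largest negative line differences, the 4 genes of each orientation with the smallest p among those changing in opposite directions, and up to 2 members of each list. Always named were NSD, Kdm4A, Kdm5, Set1, Set2, Yp1, Yp2, Yp3, nrv3, dao, tim, eya, cpo, foxo and nanos. No sequence was printed, since none of these genes' sequences was used here.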

Additional observations from a re-analysis of the deposited data

Results flagged for a closer look

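The genes named by rule that had a called difference between the lines in their change from age control to diapause are collected here, since the test of that difference itself passed (edgeR quasi-likelihood test, Benjamini-Hochberg adjusted over 9037 genes; 84 of 95 named genes, 51 positive and 33 negative). Each value is the log2 line difference, LP change minus HP change. The values themselves, with their errors and levels, are given above for the genes the results turn on.

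Genes with the largest positive values were PPO2 (6.85), tut (3.40), Dscam4 (3.36), Hesr (3.22), St3 (3.11), nrm (2.82), Dhc98D (2.76), Sox102F (2.45) and LManII (2.11). The largest negative values were those of S-Lap1 (−10.69), Dro (−4.19), tbc (−4.06), Arc1 (−3.71), Phlpp (−3.59), Vmat (−3.43), tnc (−2.92) and Ance (−2.82). The fitted values of PPO2 and S-Lap1 depend on the prior count, because a group held 0 counts, and are no bounds. Genes with opposite changes further included pst (−1.62), CkIIalpha-i3 (−1.78) and Cyp4e2 (−1.12).

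In ribosomes, translation and protein care the values were RpL5 0.68, RpS9 0.62, Non1 1.01, Polr1B 0.74, eIF3e 0.45, eEF1alpha2 −2.06, IleRS 0.38, AsnRS 0.33, mRpS5 0.42, mRpS2 0.41, Hsc70-5 0.36, CaBP1 −0.31, ERp60 −0.21, Prosbeta1 −0.30, Atg101 0.55 and Atg9 0.44. On the muscle, blood cell and oviduct lists they were Mlc2 −1.82, Mlc1 −1.91, Pxn −2.05 and Oseg1 −0.52. Germline and follicle cell values were vas 0.40, c(3)G 0.58, vilya 1.45, nxf2 −0.67, cuff −1.02, orb 0.63, png −0.59, peb 0.81, cas 1.47, eya 0.89 and clos 0.39.

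Chromatin and cell cycle values were SmydA-9 −1.98, Set2 0.43, Kdm3 0.65, Kdm2 0.43, Klp3A −0.57, cort −0.60, Psf1 −1.05, Ts −0.50, Xpc −0.44, mre11 −0.41, Strica 1.00 and Dark 0.58. Metabolism and transport gave AcCoAS 0.86, FASN3 1.74, FASN1 0.56, Zw 0.97, Pfk −0.49, ATPsynbeta 0.43, Cyt-c1 0.34, NKCC −2.45, Nhe3 0.61, GstE9 −2.52, GstS1 0.71 and Cyp6v1 −0.58. Hormone, clock and immune genes gave Ilp6 1.60, gig 0.36, foxo 0.31, nvd 0.95, EcR 0.38, Clk 1.29, cwo 0.55, Rel 0.54 and dao 1.70.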

How the results depend on the processing

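The line difference was called for 1856 genes with DESeq2, 1709 with library totals, 1653 with relative log expression factors, 1410 with no low-count filter and 1259 in a fit to the 12 libraries, against 1661 in the edgeR fit to all 18. Of the 1661, 1633, 1385, 1574, 1382 and 1239 were shared with these fits in the same order. Leaving out 1 library gave 1294 to 1840 calls, of which 795 to 1150 were positive and 499 to 690 negative. The same fits gave 6162 to 6693 calls for the LP change and 5826 to 6284 for the HP change. They gave 2300 to 3251 between the lines in diapause and 3284 to 3842 in age controls. Leaving out LP diapause replicate 2 and LP age control replicate 2 together, an alternative chosen after seeing the data, gave 1348. Against a 1.5-fold change the counts were 280 for the line difference (117 positive, 163 negative), 2888 for the LP change, 2341 for the HP change, 554 between the lines in diapause and 803 in age controls. This is a stricter test by construction.

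Same-numbered libraries did not deviate together (correlations −0.137 to 0.142, 1 of 18 pairs over 0.1), so the numbers were not taken to pair the samples. With the replicate block, 1687 genes were called, 1603 of them shared with the fit without it.

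Of the 95 named genes, sign changes were found only for 5 that were not called. Of the 84 named genes that were called, 50 lost their call against a 1.5-fold change and 9 in the fit to 12 libraries. Calls were also lost for 4 with library totals, 3 with no filter and 5 without both LP replicates 2. With DESeq2, relative log expression factors and the replicate block, 1 call each was lost. Leaving out 1 library lost 1 to 9 calls, and 10 genes lost theirs in at least 1 such fit. Set1 was −0.0052 with DESeq2, −0.066 with library totals, −0.0048 with relative log expression factors, −0.0072 with no filter and −0.026 without both LP replicates 2. Leaving out 1 library took Set1 as low as −0.065 (without HP age control replicate 3) and −0.018 (without LP age control replicate 2). Kdm4A was −0.030 with library totals and −0.024 without LP diapause replicate 1. Yp3 was −0.043 without LP diapause replicate 2. Kdm5 was 0.0043 and NSD 0.012 without LP age control replicate 3, and Kdm5 was 0.049 without HP age control replicate 2. Over all 12 fits that left out 1 library the ranges were −0.21 to 0.012 for NSD, −0.024 to 0.14 for Kdm4A, −0.20 to 0.049 for Kdm5, −0.065 to 0.089 for Set1 and −0.043 to 0.41 for Yp3. The cause was not tested. DESeq2 called tim (0.52, adjusted p = 0.046) and did not call foxo (0.29, adjusted p = 0.055). Genes at the lowest levels were called less often (13.5% in the lowest of 4 level classes), so a difference not called there may lie under what this depth can show.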
